A study of Mus musculus with 7 samples.

Results

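The genes described are 10 that make, conjugate or take up bile acids in the liver: Cyp7a1, Cyp8b1, Cyp27a1, Cyp7b1, Hsd3b7, Akr1d1, Amacr, Slc27a5, Baat and Slc10a1. They were found by gene symbol in the annotation of the array's probes, and each was read by 1 probe, so that they make up 10 of 23574 probes and 10 of 16462 measured genes. Livers of 3 C3ar1-/- mice and 4 wild-type littermates, all on a chow diet, were compared. C3ar1 encodes the receptor for the complement fragment C3a. Each mouse had its own 2-colour array, on which its liver RNA was set against a common pool from the livers of 6 wild-type control mice. The wild-type mice are numbered 1 to 4 and the knockouts 2 to 4, and the labels used here give no strain, age or sex. Which part of C3ar1 was deleted is not given either.

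Hepatocytes dispose of cholesterol by turning it into bile acids. The classical route opens with Cyp7a1, and an alternative route opens with Cyp27a1 and continues through Cyp7b1. Cyp8b1 decides how much of the product is cholic acid, which sets the balance of the bile acid pool. Bile acids returning from the gut feed back on Cyp7a1 and Cyp8b1 through the nuclear receptor FXR, its partner SHP and the receptor Fgfr4. In mouse liver Cyp7a1 is also known for a strong daily rhythm and for its response to feeding and to inflammation.

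All values are deposited log ratios, read here as base 10, and a value above 0 most likely means that a mouse exceeded the pool. Neither the base nor the direction is stated in the sources used here, and if the ratio ran from pool to mouse, all signs below would be opposite. A ratio to a liver pool shows no absolute level, so neither the amount of these messages nor the cell makeup of the livers can be read from it. In whole liver, fewer cells of a type and less RNA per cell cannot be told apart. The SD over all probes was 0.0466 to 0.0676 on 6 arrays and 0.0975 in knockout mouse 2, which stood apart in its spread. Knockout mouse 4 stood apart in the list of 11 measured acute phase genes, plasma protein genes of inflammation, with a mean log ratio of 0.326 against -0.113 to 0.136 in the wild types. The single probe of C3ar1 differed by 0.0329 ± 0.0233 (SE) between the genotypes (limma, adjusted p = 0.884), and since the deleted part is unknown it checks neither the labels nor the direction.

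None of the 10 genes passed the test between genotypes over all probes. The members' adjusted p was 0.884 in every case (limma, Benjamini-Hochberg over 23574 probes), and 0.00424% of all probes, A2ml1 alone, passed. At an unadjusted p under 0.05 limma listed 2 of the 10, beside 4.47% of all probes. They were Akr1d1, with the lower mean in the knockouts as in 2.61% of all probes, and Slc10a1, with the higher mean as in 1.86%. An unmoderated test of each probe on its own listed 0 of the 10 at that level. The difference in means was below 0 for 6 genes and above 0 for 4, beside 43.0% of all probes below 0, and the median over the 10 was -0.0378, beside 0.00555 over all probes. Groups did not overlap in 1 of the 10, Slc27a5, beside 5.26% of all probes.

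Several of these genes varied more from mouse to mouse than most probes did, a trait not particular to the set. Wild-type SDs were 0.379 for Cyp2b9, 0.327 for Hsd3b5 and 0.288 for Tat, liver genes outside it picked as examples. They were 0.204 for Cyp7a1 and 0.225 for Cyp7b1. The probes compared include 5700 with no listed gene. The SD over the 7 arrays was 0.292 for Cyp7a1, a value exceeded by 0.191% of all probes. It was 0.210 for Cyp7b1, 0.195 for Cyp8b1 and 0.150 for Akr1d1, exceeded by 0.484%, 0.585% and 1.59% of probes. The median probe had an SD of 0.0364. The spread was also wide over the 4 wild types alone, where larger SDs were found in 0.335% of probes for Cyp7b1, 0.462% for Cyp7a1, 1.61% for Cyp8b1 and 1.66% for Akr1d1. The steadiest member was Slc27a5, with an SD over the 7 arrays of 0.0352, exceeded by 52.0% of probes.

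**Figure D1:**
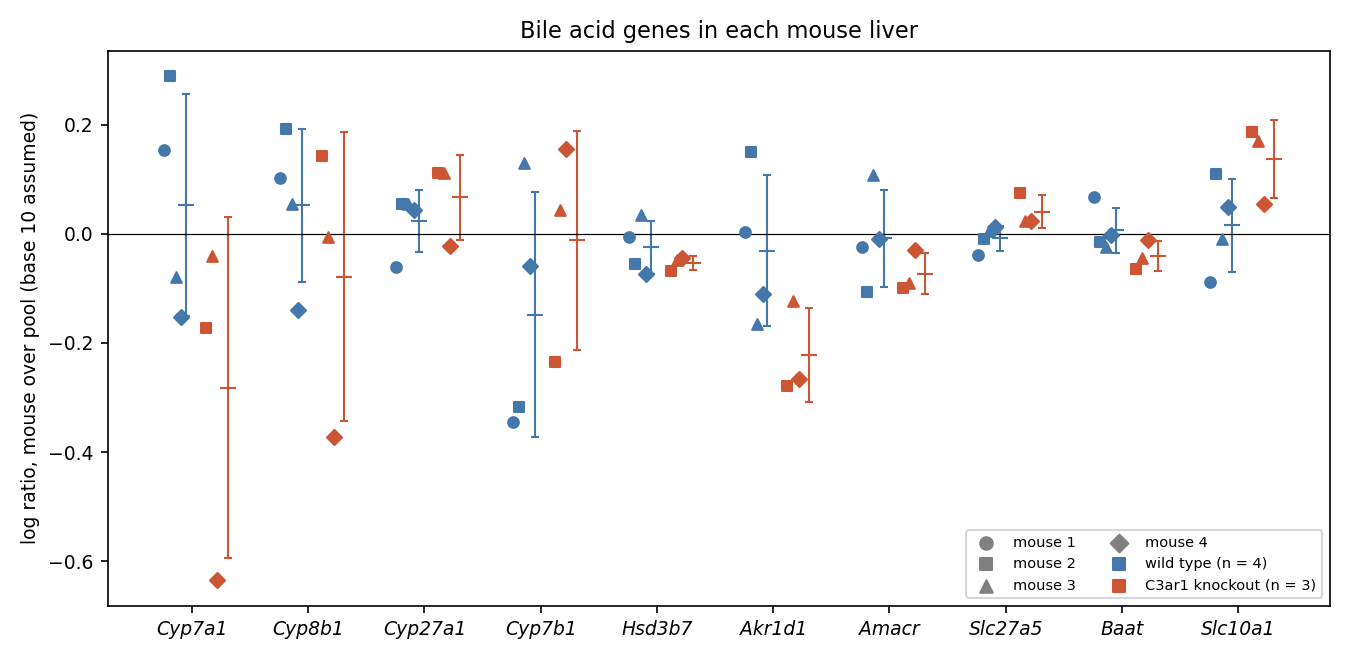
Log ratio of each of the 10 genes (base 10 assumed) in each mouse liver against the wild-type pool, with wild types in blue, knockouts in red and the mouse number as the marker shape. The labels do not say whether equal numbers pair mice. Bars show the mean and SD of 4 wild types and 3 knockouts; Cyp7a1 spans -0.635 to 0.289, while Slc27a5 spans -0.0396 to 0.0755.

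Cyp7a1, the rate-limiting enzyme of the classical route, had the widest range of the 10. Its log ratio was 0.153, 0.289, -0.0797 and -0.152 in wild-type mice 1 to 4, and -0.172, -0.0408 and -0.635 in knockout mice 2 to 4. Knockout 4 lay far below every other mouse, knockout 2 just below the lowest wild type, and knockout 3 within the wild-type range. The mean was -0.282 ± 0.312 (SD, n = 3) in the knockouts and 0.0526 ± 0.204 (SD, n = 4) in the wild types. The difference of -0.335 ± 0.157 (SE) amounts to 2.16-fold in base 10. Its 95% interval, from -0.701 to 0.0309, held 0, and an unadjusted p of 0.0675 by limma became 0.884 after adjustment. The difference was -0.159 without knockout 4. Among wild types alone the highest and lowest values of Cyp7a1 were 2.76-fold apart, and over all 7 mice 8.38-fold.

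Cyp8b1, the sterol hydroxylase that directs synthesis to cholic acid, was 0.102, 0.192, 0.0551 and -0.140 in wild types 1 to 4. In knockouts 2 to 4 it was 0.143, -0.0062 and -0.372. Only knockout 4 lay outside the wild-type range. The difference in means was -0.131 ± 0.124 (SE), and without knockout 4 it was 0.0161, so its sign rested on that mouse. Without knockout 2 it was -0.242, and without wild type 2 it was -0.0843. The 95% interval of the difference ran from -0.420 to 0.159.

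Cyp27a1, the mitochondrial sterol side-chain hydroxylase, read -0.0608 in wild type 1 and between 0.0436 and 0.0550 in wild types 2 to 4. Knockouts 2 and 3 read 0.111 and 0.112, above all wild types, and knockout 4 read -0.0231, within their range. The difference in means was 0.0435 ± 0.0433 (SE), with a 95% interval from -0.0571 to 0.144. It was 0.0155 without wild type 1, 0.0212 and 0.0209 without knockouts 2 and 3, and 0.0883 without knockout 4.

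Cyp7b1, the oxysterol hydroxylase of the alternative route, was -0.344, -0.317, 0.130 and -0.0589 in wild types 1 to 4, and -0.235, 0.0443 and 0.155 in knockouts 2 to 4. Both groups held low and high mice: wild types 1 and 2 and knockout 2 were low, while wild type 3 and knockout 4 were high. The difference in means was 0.135 ± 0.134 (SE), with a 95% interval from -0.177 to 0.448. It was 0.0521 without knockout 4, 0.0700 and 0.0789 without wild types 1 and 2, and 0.228 and 0.247 without wild type 3 and knockout 2. Wild types alone spanned 2.98-fold in base 10. The 2 mice with the highest Cyp7a1, wild types 2 and 1, had the lowest Cyp7b1, and the mouse with the lowest Cyp7a1, knockout 4, had the highest Cyp7b1.

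Hsd3b7 and Akr1d1 act next, on the sterol ring. Hsd3b7, which oxidises the ring's hydroxyl group, lay between -0.0739 and 0.0346 in the wild types and between -0.0687 and -0.0449 in the knockouts, wholly inside the wild-type range. Its difference in means was -0.0290 ± 0.0283 (SE), -0.00913 without wild type 3 and -0.0453 without wild type 4. Akr1d1, the steroid reductase that gives bile acids their bent ring system, was 0.0036, 0.149, -0.165 and -0.111 in wild types 1 to 4. It was -0.278, -0.124 and -0.266 in knockouts 2 to 4. Knockouts 2 and 4 lay below all wild types, and knockout 3 lay between wild types 3 and 4.

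For Akr1d1 the mean was -0.222 ± 0.0858 (SD, n = 3) in the knockouts and -0.0308 ± 0.139 (SD, n = 4) in the wild types. The difference of -0.192 ± 0.0761 (SE), or 1.55-fold in base 10, had a 95% interval from -0.369 to -0.0147, and an unadjusted p of 0.0372 by limma became 0.884 after adjustment. It was -0.170 without knockout 4 and -0.132 without wild type 2. Differences of a larger size than that of Akr1d1 were found in 0.445% of all probes, and than that of Cyp7a1 in 0.0806%. These shares take no account of the spread between mice, which was wide in both genes. Larger SDs over the 7 arrays were found in 1.59% of probes for Akr1d1 and 0.191% for Cyp7a1. Akr1d1 is the only member on chromosome 6, which also carries C3ar1, 85.3 Mb away in the RefSeq annotation of GRCm38.p6.

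The last steps shorten the side chain and attach an amino acid. Amacr, the racemase that prepares the side chain for peroxisomal oxidation, was between -0.107 and 0.107 in the wild types and between -0.0994 and -0.0301 in the knockouts. Its difference in means was -0.0643 ± 0.0471 (SE), with -0.0258 without wild type 3, the highest mouse, and -0.0970 without wild type 2, the lowest. Slc27a5, the bile acid CoA ligase, was -0.0396, -0.0089, 0.0044 and 0.0125 in wild types 1 to 4. Knockouts 2 to 4 gave 0.0755, 0.0227 and 0.0240, each above all 4 wild types.

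For Slc27a5 the difference in means of 0.0486 ± 0.0220 (SE) amounts to 1.12-fold in base 10. Its 95% interval ran from -0.00245 to 0.0997 (limma, adjusted p = 0.884), and over single mice left out it ranged from 0.0312 without knockout 2 to 0.0576 without knockout 3. Groups without overlap and with the knockouts higher were found in 2.71% of all probes. Baat, which joins the activated bile acid to taurine or glycine, was 0.0672, -0.0157, -0.0239 and -0.0028 in wild types 1 to 4, and -0.0645, -0.0453 and -0.0113 in knockouts 2 to 4. Its difference in means was -0.0466 ± 0.0270 (SE), with knockout 4 inside the wild-type range and the other knockouts below it, and was -0.0262 without wild type 1. The 2 conjugating enzymes thus had differences of opposite sign, neither of which passed.

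Slc10a1 encodes NTCP, the sodium-dependent transporter that brings bile acids from portal blood back into hepatocytes. Its log ratio was -0.0884, 0.110, -0.0096 and 0.0492 in wild types 1 to 4. Knockouts 2 to 4 gave 0.187, 0.170 and 0.0546. Knockouts 2 and 3 lay above all wild types, and knockout 4 lay below wild type 2. The mean was 0.137 ± 0.0720 (SD, n = 3) in the knockouts and 0.0154 ± 0.0848 (SD, n = 4) in the wild types. The difference of 0.122 ± 0.0516 (SE), or 1.32-fold in base 10, had a 95% interval from 0.00163 to 0.242, and an unadjusted p of 0.0476 by limma became 0.884 after adjustment. It was 0.0872 without wild type 1 and 0.163 without knockout 4.

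**Figure D2:**
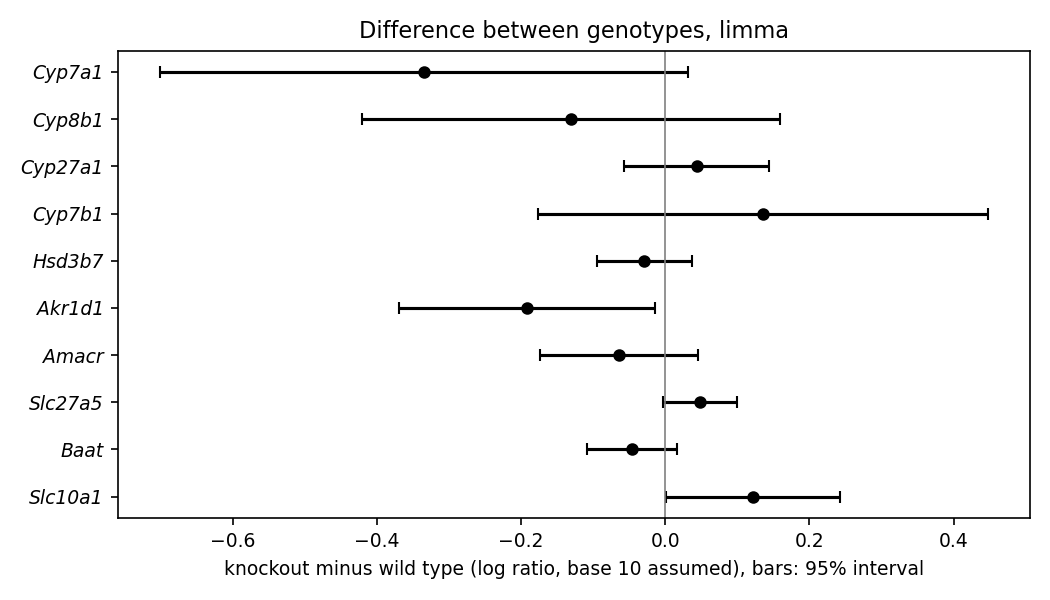
Difference between knockout and wild-type means for each of the 10 genes, on the log ratio scale (base 10 assumed), with the 95% interval of the moderated limma fit that is not adjusted for the number of probes. The interval of Cyp7a1 runs from -0.701 to 0.0309, and only those of Akr1d1 and Slc10a1 leave out 0; none of the 10 passed after adjustment.

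Since Cyp7a1 varied so much between mice, the other members were set against it across the 7 mice, 9 relations in all. Both genotypes were pooled, so a difference between genotypes in both genes of a pair enters its r, rho and p. Such a difference and variation between mice of a genotype cannot be told apart here. Cyp8b1 went with it at Pearson r = 0.869 (two-sided exact permutation p = 0.0129, adjusted over the 9 relations 0.0732) and Spearman rho = 0.607 (exact permutation test, p = 0.167, adjusted 0.375). Without knockout 4 and wild type 2, the mice farthest from the median of Cyp7a1, r was 0.300, so that relation rested on those mice. Akr1d1 went with Cyp7a1 at r = 0.847 (exact permutation test, p = 0.0163, adjusted 0.0732) and rho = 0.857 (exact permutation test, p = 0.0238, adjusted 0.154). Without the same mice r was 0.839 over 5 mice (exact permutation test, p = 0.108, adjusted 0.300), with rho = 0.700.

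Cyp7b1 ran the other way, with r = -0.713 (exact permutation test, p = 0.0595, adjusted 0.179) and rho = -0.643 (exact permutation test, p = 0.139, adjusted 0.375), and r = -0.420 without those mice. For Slc27a5 the values were r = -0.514 (exact permutation test, p = 0.213, adjusted 0.480) and rho = -0.821 (exact permutation test, p = 0.0341, adjusted 0.154), and r = -0.832 without them. For the other 5 members r lay between -0.191 and 0.267, with an adjusted p of 0.813 in each (exact permutation test). Without knockout 4 and wild type 2, r was 0.816 for Baat, -0.788 for Cyp27a1 and -0.680 for Slc10a1. For Hsd3b7 and Amacr it was then 0.500 and 0.0739. None of the 9 relations passed after adjustment.

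The upstream sequences of Cyp8b1 and Akr1d1 are shown because these genes had the highest correlations with Cyp7a1. They are the 250 bases before the annotated start in RefSeq, build GRCm38.p6, written 5′ to 3′ on the gene's strand: chr9:121916306-121916555 on the minus strand for Cyp8b1 and chr6:37529923-37530172 on the plus strand for Akr1d1. The table of promoters held windows for 5 of the 10 genes. Capitals mark matches to CAAAGTCCA, a form of the HNF4 site, and CAAGGNCA, a form of the LRH-1 site, both of which were searched on both strands.
Cyp8b1: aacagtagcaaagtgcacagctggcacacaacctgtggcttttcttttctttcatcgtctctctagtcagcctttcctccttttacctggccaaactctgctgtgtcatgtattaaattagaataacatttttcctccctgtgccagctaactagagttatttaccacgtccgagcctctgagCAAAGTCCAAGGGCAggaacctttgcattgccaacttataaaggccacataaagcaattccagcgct
Akr1d1: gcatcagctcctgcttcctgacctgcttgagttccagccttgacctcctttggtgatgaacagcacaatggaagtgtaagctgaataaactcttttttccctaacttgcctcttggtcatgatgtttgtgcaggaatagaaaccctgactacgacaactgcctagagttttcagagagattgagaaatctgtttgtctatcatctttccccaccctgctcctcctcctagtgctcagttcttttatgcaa
In Cyp8b1 the first motif spans bases 67 to 59 before the start and the second, as CAAGGGCA, bases 60 to 53, so that they overlap by 2 bases. Of 32851 windows of 250 bases, 0.384% held the first motif and 5.53% the second. Neither was found in the windows of Akr1d1, Cyp27a1, Hsd3b7 or Slc10a1. A match describes the letters only, the motifs were chosen with the Cyp8b1 sequence in view, and binding was not measured.

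**Figure D3:**
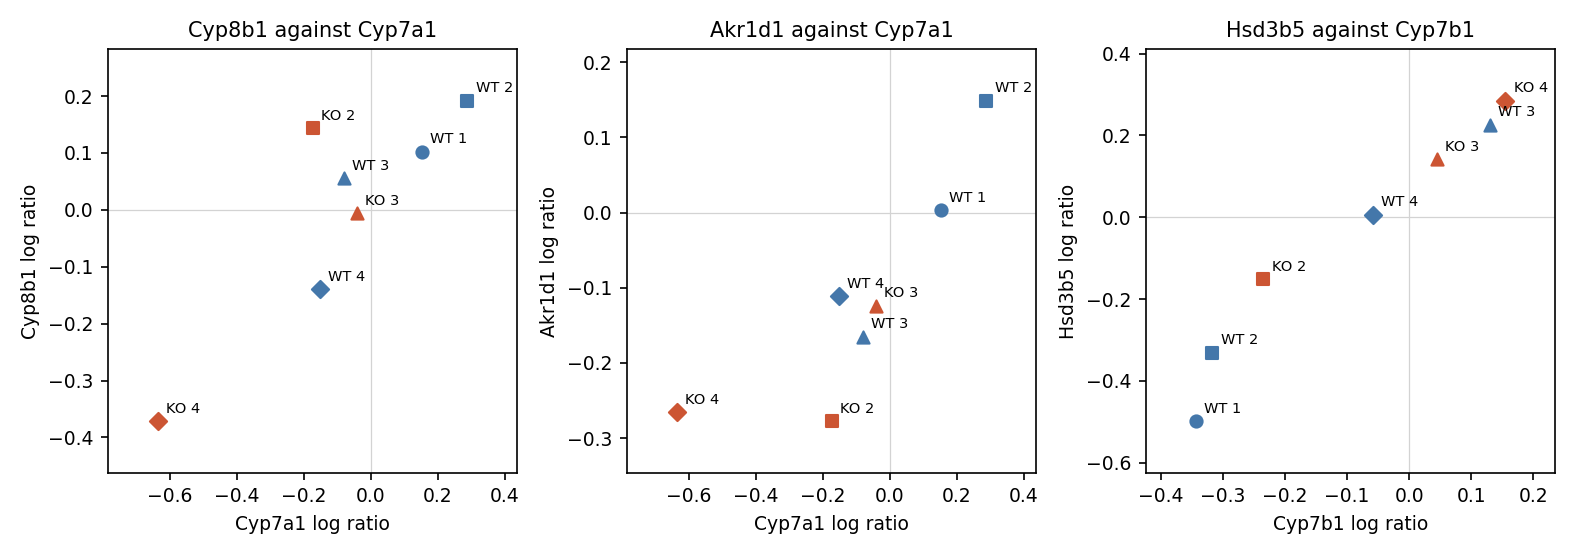
Log ratios (base 10 assumed) of 3 pairs of genes, each point 1 mouse liver, with wild types in blue and knockouts in red: Cyp8b1 against Cyp7a1, Akr1d1 against Cyp7a1, and Hsd3b5 against Cyp7b1. Knockout 4 sits at the low end of Cyp7a1 at -0.635 and wild type 2 at its high end at 0.289. Hsd3b5 was picked for its high r with Cyp7b1 among 15844 genes on these same arrays. That it lines up with Cyp7b1 across both genotypes follows from this choice.

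The genes most like Cyp7a1 and Cyp7b1 over the 7 arrays were looked up among 15844 others, as a description only. Nearest to Cyp7a1 were 3 olfactory receptor genes, Olfr707, Olfr675 and Olfr1132, each with r = 0.988. Their log ratios were small, between -0.0437 and 0.0351, and 95 genes had r above 0.9 with Cyp7a1. Nearest to Cyp7b1 were Pramel11 (r = 0.980), Hsd3b5 (r = 0.979) and Traf3ip3 (r = 0.977), and 94 genes had r above 0.9.

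Hsd3b5, a hydroxysteroid dehydrogenase known for its male-biased expression in mouse liver, followed the order of Cyp7b1 closely, over a wider range. It was -0.499, -0.331, 0.226 and 0.0066 in wild types 1 to 4, and -0.152, 0.142 and 0.285 in knockouts 2 to 4. Cyp7b1 is itself known as male-biased in this tissue. The mean of the 8 measured genes of the male-biased list, which holds Hsd3b5, was -0.126, -0.0407, 0.102 and -0.0175 in wild types 1 to 4. In knockouts 2 to 4 it was 0.0553, 0.0528 and 0.0415. It did not follow Cyp7b1 there: knockout 2, low in Cyp7b1 at -0.235, was second highest of the 7 mice in this mean. Knockout 4, highest in Cyp7b1 at 0.155, was the lowest knockout. The mean of 10 female-biased genes was 0.107, 0.109, -0.152 and 0.0145 in the wild types, and 0.0222, 0.0472 and -0.270 in knockouts 2 to 4. The 2 mice lowest in female-biased genes, knockout 4 and wild type 3, were the 2 highest in Cyp7b1. The part of these lists in the values of Cyp7b1 was not tested.

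Knockout 4, the mouse with the lowest Cyp7a1 and Cyp8b1, had the highest mean of the 7 mice in acute phase genes, in markers of Kupffer cells, the macrophages of the liver, and in endothelial, stellate, lymphocyte and neutrophil markers. Its serum amyloid genes Saa1, Saa2 and Saa3 read 0.760, 0.901 and 0.772. The mean of 11 Kupffer cell markers was 0.119 in it, against -0.232 to -0.0713 in the wild types and -0.171 and -0.115 in the other knockouts, and 11 of 11 had a difference in means above 0 on the deposited scale, beside 56.7% of all genes. Without knockout 4 the count was 4 of 11. Wild type 1, second in acute phase genes at 0.136, was second highest in Cyp7a1 at 0.153. Of the markers of other cell types, cholangiocyte genes averaged -0.0499 to 0.0826 in the wild types and -0.0441 to 0.0410 in the knockouts (9 measured). Endothelial genes averaged -0.0813 to 0.0141 and -0.0277 to 0.0474 (12 measured), and stellate cell and fibroblast genes -0.0789 to -0.0157 and -0.00984 to 0.0319 (11 measured). Lymphocyte genes averaged -0.0353 to 0.0156 and -0.0352 to 0.0239 (11 measured), and neutrophil genes -0.0261 to 0.000282 and -0.0370 to 0.0418 (11 measured). The first place of knockout 4 in the lymphocyte mean rested on Ptprc, at 0.0760 in it and below 0 in every other mouse. In the neutrophil mean it rested on S100a8 and S100a9, at 0.151 and 0.239, while Camp was lowest in knockout 4 at -0.0881. No defining marker can be read as present or absent from ratios to a liver pool, and the part of these lists in the values of Cyp7a1 and Cyp8b1 was not tested.

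Hepatocyte genes, 11 measured, averaged -0.0486 to 0.0563 in the wild types and -0.0640 to 0.0699 in the knockouts, and were at 0.0613 in knockout 4, where Cyp7a1 and Cyp8b1 were lowest. Cyp7a1 and Akr1d1 are known as genes of hepatocytes near the central vein. The 11 measured pericentral genes averaged -0.00372 to 0.0382 in the wild types, and 0.0296, -0.0263 and -0.0542 in knockouts 2 to 4. Differences in means were below 0 in 7 of these 11 and above 0 in 4, beside 43.3% of all genes below 0. Of the 11, 0 passed (limma on genes with their probes averaged, 0.00607% of 16462 genes called). At an unadjusted p under 0.05, a level that 4.79% of all genes passed in either direction, 3 were lower. The 10 measured periportal genes averaged -0.128 to 0.107 in the wild types and 0.0541 to 0.0896 in the knockouts. Their differences were above 0 in 9 of 10, and in 7 of 10 without knockout 4, beside 56.7% of all genes with or without that mouse. The median was 0.0730, 0 passed, and 1 was higher at an unadjusted p under 0.05. Clock genes, 13 measured, peak at different times of day, so their mean says little, and single genes were read after their values were seen. Knockout 4 was highest of the 7 mice in Arntl, Nr1d1 and Nfil3, at 0.286, 0.204 and 0.198, and lowest in Per2, at -0.228. It was also lowest in Per1 and Dbp, at -0.0770 and -0.0722, but highest in Per3 and Cry1, at 0.107 and 0.0302. In Clock, Npas2, Cry2, Nr1d2 and Tef it lay within the range of the other mice. The other 6 mice lay between -0.215 and 0.0469 in Arntl and between -0.120 and 0.172 in Per2. Genes of cholesterol synthesis, 16 measured, were highest at 0.207 in wild type 2, which was also the mouse with the highest Cyp7a1, and lay between -0.0763 and 0.0623 in the others. They were lowest in wild type 1, the mouse with the second highest Cyp7a1, at 0.153. In 14 of the 16 the difference in means was below 0, beside 43.3% of all genes, and in 2 it was above 0. Without knockout 4 the difference was above 0 in 3 of the 16, and 0 passed with all mice. Whether any of these lists bears on the members was not tested.

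**Figure D4:**
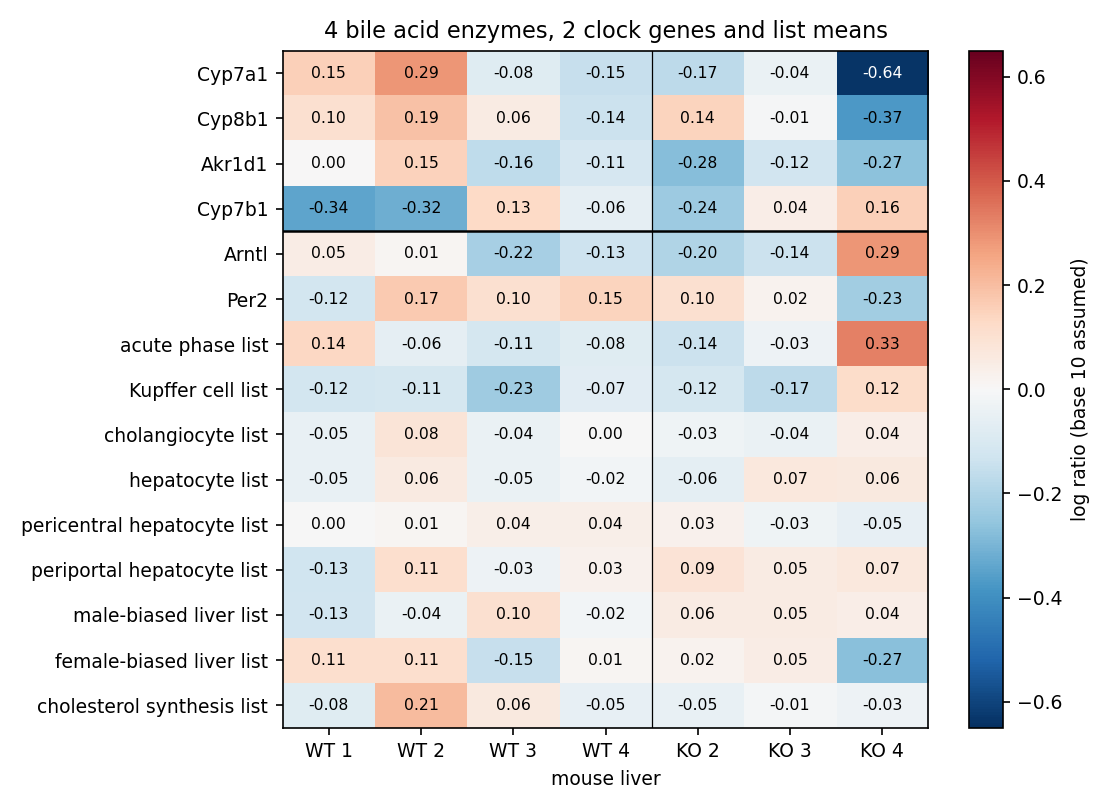
Log ratios (base 10 assumed; red above the pool, blue below) of Cyp7a1, Cyp8b1, Akr1d1 and Cyp7b1 and, under the line, of the clock genes Arntl and Per2 and the means of 9 gene lists, in 4 wild-type (WT) and 3 knockout (KO) livers. Arntl and Per2 were picked from 13 measured clock genes after their values were seen. The column of knockout 4 holds the lowest Cyp7a1 and the highest acute phase mean, 0.326, and the column of wild type 2 the highest Cyp7a1 and the highest cholesterol synthesis mean, 0.207. Wild type 1, second highest in Cyp7a1, holds the second highest acute phase mean, 0.136, and the lowest cholesterol synthesis mean, -0.0763.

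The wider bile acid system was read from 3 lists of other genes, 63 listed and 54 measured by 56 probes. Of these probes 0 passed (limma, with a lowest adjusted p of 0.884), 4 lay below an unadjusted p of 0.05, beside 4.47% of all probes, and by the unmoderated test 0 did. None of the 54 genes was without overlap between groups, beside 5.38% of all genes. Their median difference was 0.00340, close to the 0.00555 of all probes.

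Among 19 other enzymes and their partners 11 differences were below 0 and 8 above, beside 43.3% of all genes below 0. Fdx1, the ferredoxin that passes electrons to mitochondrial cytochromes such as Cyp27a1, was between -0.0477 and 0.0464 in the wild types and -0.113, -0.0269 and -0.183 in knockouts 2 to 4. Its difference in means was -0.103 ± 0.0391 (SE; unadjusted p = 0.0311, adjusted p = 0.884, limma), and -0.0653 without knockout 4. Abcd3, a peroxisomal importer of bile acid intermediates, was between -0.141 and 0.149 in the wild types and -0.251, -0.0720 and -0.222 in the knockouts, a difference in means of -0.167 ± 0.0711 (SE). The peroxisomal side-chain enzymes Hsd17b4 and Scp2 differed by -0.102 ± 0.0496 and -0.0756 ± 0.0487 (SE), and Scp2 by -0.0299 without knockout 2. Cyp2c70, which makes the muricholic acids typical of mice and was named after its values were seen, was -0.342, -0.0932, -0.0032 and -0.0503 in the wild types and -0.286, 0.0576 and 0.177 in the knockouts. As with Cyp7b1, wild type 1 and knockout 2 were low and knockout 4 was highest.

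Among 17 other transporters 9 differences were below 0 and 8 above, beside 43.3% of all genes below 0. Slco1b2, which takes up unconjugated bile acids without sodium, was 0.125, -0.131, -0.0250 and -0.0595 in wild types 1 to 4 and -0.313, -0.112 and -0.157 in knockouts 2 to 4. Its difference in means of -0.171 ± 0.0677 (SE) had the opposite sign to that of the other uptake carrier, Slc10a1 (unadjusted p = 0.0366, adjusted p = 0.884, limma), and was -0.112 without knockout 2. Abcb1a, a drug efflux pump, differed by -0.244 ± 0.0983 (SE), with knockout 4 at -0.378 and wild type 4 at 0.243, and by -0.143 without that knockout. Abcg2 and Abcc6 differed by -0.0651 ± 0.0368 and 0.0636 ± 0.0409 (SE), Abcg2 by -0.0420 without wild type 3, and Abcc6 by 0.0322 and 0.0325 without knockout 2 and wild type 1. Abcb11, the bile salt export pump and a direct target of FXR, was named after its values were seen and was highest in knockout 4 at 0.149, against -0.0902 to 0.0780 in the wild types.

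Among 18 regulators 6 differences were below 0 and 12 above, beside 56.7% of all genes above 0, and none was at an unadjusted p under 0.05. The 4 of smallest p were Fgfr4, the receptor for the gut hormone FGF15, at 0.0352 ± 0.0218 (SE), Hnf4a at 0.0283 ± 0.0193, Nr1h3 (LXR alpha) at 0.0480 ± 0.0331 and Nr1i3 (CAR) at 0.0253 ± 0.0187. Without knockout 2 the difference of Nr1h3 was 0.0115. Nr1i3 rested on 1 of its 2 probes, and their average differed by -0.00845. The feedback receptors were named after their values were seen. Nr1h4 (FXR) was -0.0851 in knockout 4, 0.0357 and 0.0717 in knockouts 2 and 3, and -0.0379 to 0.0693 in the wild types. Nr0b2 (SHP) was 0.0340 in knockout 4 and -0.0404 and -0.136 in knockouts 2 and 3, within the wild-type range of -0.150 to 0.106.

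**Figure D5:**
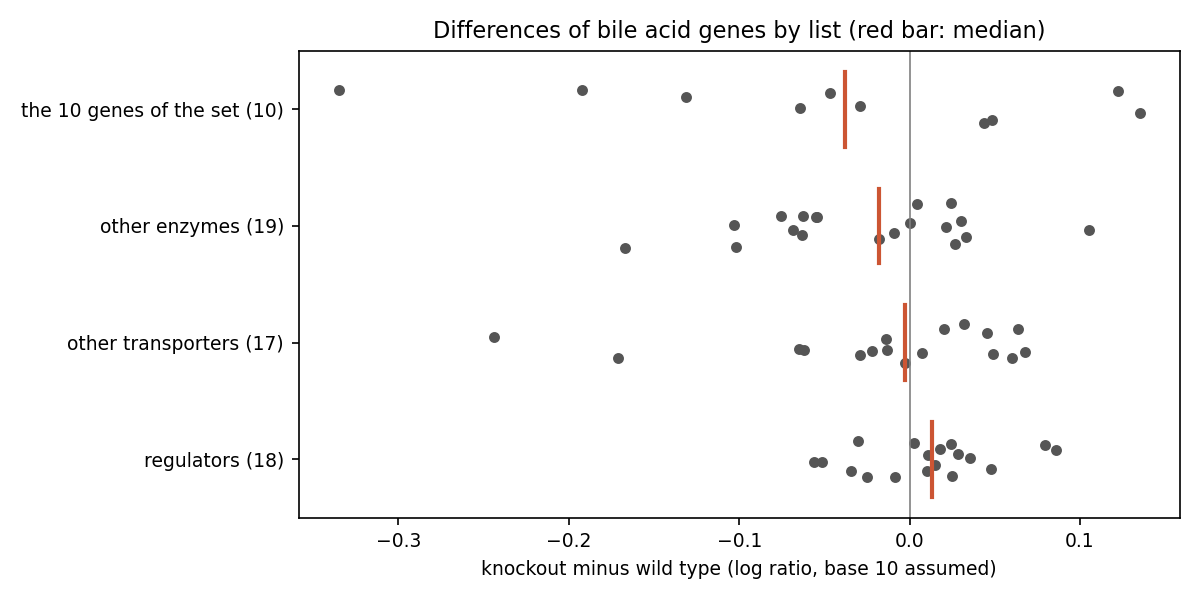
Difference between knockout and wild-type means (base 10 assumed) for each measured gene of the 10 described and of 3 lists of other bile acid genes, with probes of a gene averaged; vertical spread within a row carries no meaning. Red bars are medians, at -0.0378 for the 10 genes, -0.0180 for other enzymes, -0.00299 for other transporters and 0.0130 for regulators, and no gene passed.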

How the data were processed

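The deposited table held a log ratio per probe for 7 arrays, read as log10 although the authors' base is not stated in the sources used here. Taken as base 2, the typical absolute deviation per array would be 1.01-fold to 1.03-fold, against 1.05-fold to 1.10-fold in base 10. Per the labels' protocols, RNA from spin columns was DNase-treated, amplified and labelled through aminoallyl chemistry (channel 1 Cy3, channel 2 Cy5). The design text names a dye swap. Background correction, normalization and whether a column merges both dye orientations are not given there. Column medians lay between -0.0008 and 0.0139. No value was missing, and 2 arrays shared at most 0.119% of equal values. The lowest correlation between 2 arrays over probes was -0.250.

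Probes were named through the platform annotation, updated against GRCm38.p6 by Entrez number (17724) or accession (21), and 79 kept their symbol. In all 17824 probes had 1 symbol, 50 several and 5700 none. The fit was limma 3.58.1 in R 4.3.3 (lmFit, eBayes, knockout minus wild type, two-sided) over 23574 probes with a threshold of 0.05, and it was tested on simulated data. There, shifts were added to probes drawn at random, 50 of each size. It recovered 8% of shifts of 0.1, 74% of shifts of 0.2 and 98% of shifts of 0.4, so small differences would mostly be missed. The median probe had an SE of 0.0268, against 0.157, 0.134 and 0.124 for Cyp7a1, Cyp7b1 and Cyp8b1. In such variable genes a shift of the same size would be found less often, so these rates do not carry over to them. Many planted shifts also ease the adjustment, while 1 probe passed in the data. Lists were described on genes with probes averaged. Named were the 10 members, C3ar1, up to 4 genes of smallest p per list of other bile acid genes, and 3 genes most like Cyp7a1 and Cyp7b1, with clone-type names left out. The members and lists were chosen with earlier results of these data known. Same-numbered mice are not paired by the labels. Spot signal over background was not analysed here, and the number of arrays limits the precision.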

Additional observations from a re-analysis of the deposited data

Results flagged for a closer look

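In Cyp27a1, wild type 1 read -0.0608, far from the other 3 wild types at 0.0436 to 0.0550, with a gap of 0.902 of the group's range against a limit of 0.829. It was the 1 such case in 41 groups of 4 wild-type values examined, where chance gives about 1 in 20.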

How the results depend on the processing

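The count of members passing was 0 under all 16 alternatives to the fit, with a lowest adjusted p of 0.701 (limma), and 0 with the direction turned. Of 160 member differences under these alternatives 159 kept their sign, the exception being Cyp8b1, which ranged from -0.242 to 0.0161 over single mice left out. With array weights, which gave knockout 3 a weight of 3.21, the differences of Cyp7a1 and Akr1d1 were -0.195 and -0.118. The count over all probes, 1 as reported, was 0 after quantile or scale normalization, with a trend and robust prior and in the unmoderated test, 3 without low-variation probes, and 0 to 3 over single mice left out. With the replicate number as a block, on the 6 arrays numbered 2 to 4, that count was 0 and Cyp7a1 differed by -0.301. Deviations of same-numbered mice from their group means correlated at -0.137, -0.205 and -0.154. Such correlations cannot settle whether the mice were paired by number, which the labels do not say. For the other bile acid genes the count of 0 held under the same 16 alternatives, and Nr1i3 turned to -0.00845 with its probes averaged. Without the 2 mice farthest from the median of Cyp7a1, its r turned to -0.788 with Cyp27a1 and to 0.0739 with Amacr, over 5 mice and with 0 of 9 relations passing. The causes of these changes were not tested.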

Other observations

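All 45 pairs of the 10 members were also set against each other across the 7 mice, a choice made after seeing the data, and 0 passed after adjustment. Genotypes were again pooled, so differences between them enter these values too. The smallest p belonged to Cyp27a1 and Baat, at r = -0.894 (two-sided exact permutation p = 0.00317, adjusted over 45 pairs 0.138) and rho = -0.893 (exact permutation test, p = 0.0123, adjusted 0.307), with r = -0.939 without knockout 4 and wild type 1. Baat and Slc10a1 came next, at r = -0.880 (exact permutation test, p = 0.00615, adjusted 0.138) and rho = -0.786 (exact permutation test, p = 0.0480, adjusted 0.309), with r = -0.577 without knockout 2 and wild type 1. Cyp27a1 and Slc10a1 gave r = 0.844 (exact permutation test, p = 0.0175, adjusted 0.157) and rho = 0.821 (exact permutation test, p = 0.0341, adjusted 0.307), with r = 0.848 without knockout 4 and wild type 1. The 3 pericentral genes at an unadjusted p under 0.05 were Oat, Lgr5 and Axin2, at differences of -0.200, -0.0877 and -0.0679, with no overlap between groups in any of them, beside 5.38% of all genes, and an adjusted p of 0.872 (limma on averaged genes). The 4 with differences above 0 were Cyp1a2 at 0.0749, Glul at 0.00367, Gulo at 0.00363 and Tbx3 at 0.000192. Oat, an ornithine aminotransferase, read -0.137, -0.136 and -0.238 in knockouts 2 to 4 and -0.0888 to 0.111 in the wild types. Of 5 X-inactivation and Y-linked genes added after seeing the data 2 were measured, Kdm5d between -0.202 and -0.0242 and Uty between -0.0345 and 0.0340 over the 7 mice.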
